A study of Mus musculus with 20 samples.

Results

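Transcripts of 10 genes that mark 2 cell types of the cerebellum were followed in the brains of mice with spinal muscular atrophy (SMA). The 10 genes were taken by symbol from the 45700 genes of the deposited table, 5 for Purkinje cells (Pcp2, Pcp4, Calb1, Car8 and Itpr1) and 5 for the granule cell lineage (Atoh1, Barhl1, Neurod1, Zic1 and Pax6). All 10 were present in the table, each once. RNA came from whole brains of "Taiwanese" SMA mice, which have no functional mouse Smn and carry human SMN2 (Smn-/-; SMN2tg/0), and of littermates with 1 intact Smn allele and the same transgene (Smn-/+; SMN2tg/0), all congenic on FVB. Controls and SMA mice therefore shared SMN2 and differed in Smn. Of each genotype 2 brains were taken on postnatal day 5, called early symptomatic, and 3 on postnatal day 7, called late symptomatic. From each sucrose gradient all fractions were pooled as total RNA and the polysomal fractions as polysomal RNA, which gave 20 libraries from 10 numbered mice. Levels are FPKM, fragments scaled to the length of the transcript and to the mapped fragments of the library, so they are relative to the other RNAs of the same library. How many reads lie behind a value is unknown, because Cufflinks divides reads between transcripts and the table rounds its estimates.

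Purkinje cells are the inhibitory output neurons of the cerebellar cortex. Pcp2 and Pcp4 encode small proteins that modulate G protein and calmodulin signaling, Calb1 encodes the calcium buffer calbindin, Itpr1 the inositol trisphosphate receptor that releases stored calcium, and Car8 a protein that binds this receptor. Granule cells arise from progenitors that express Atoh1, a basic helix-loop-helix factor, and divide in the outer layer of the cerebellum during the first postnatal weeks under Sonic hedgehog released by Purkinje cells. Barhl1 and Zic1 are transcription factors of this lineage, Pax6 is made in progenitors and granule neurons, and Neurod1 in cells that leave the cycle. Several of the 10 are not particular to the cerebellum. Pcp4, Calb1 and Itpr1 are also made in forebrain neurons, and Neurod1 and Pax6 in cortex, olfactory bulb and retina. In whole brain RNA, fewer cells of a type and less RNA per cell cannot be told apart.

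Upstream sequences were read for 7 of the 10 genes from RefSeq (GRCm38.p6). Calb1, Car8 and Itpr1 were not matched. The 4 genes below were chosen because they head the 2 groups or carry a searched motif, and each line holds the 250 bases before the start site that lies furthest upstream, 5′ to 3′ on the strand of the gene. Capitals mark AGGTCA, the core bound by ROR nuclear receptors such as RORα of Purkinje cells, or the E-boxes CAGCTG and CAGATG bound by basic helix-loop-helix factors, all searched on both strands. CAGCTG reads alike on both strands.
Pcp2, chr8:3625548-3625797, minus strand: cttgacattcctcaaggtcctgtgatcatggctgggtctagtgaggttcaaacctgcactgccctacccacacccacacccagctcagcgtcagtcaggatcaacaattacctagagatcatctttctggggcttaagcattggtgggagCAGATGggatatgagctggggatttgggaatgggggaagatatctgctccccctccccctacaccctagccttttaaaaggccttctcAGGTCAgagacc
Pcp4, chr16:96467356-96467605, plus strand: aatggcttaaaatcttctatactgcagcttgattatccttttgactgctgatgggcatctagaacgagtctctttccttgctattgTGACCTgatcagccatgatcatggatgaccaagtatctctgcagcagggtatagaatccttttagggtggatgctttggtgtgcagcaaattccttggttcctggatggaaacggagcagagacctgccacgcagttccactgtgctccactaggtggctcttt
Barhl1, chr2:28916669-28916918, minus strand: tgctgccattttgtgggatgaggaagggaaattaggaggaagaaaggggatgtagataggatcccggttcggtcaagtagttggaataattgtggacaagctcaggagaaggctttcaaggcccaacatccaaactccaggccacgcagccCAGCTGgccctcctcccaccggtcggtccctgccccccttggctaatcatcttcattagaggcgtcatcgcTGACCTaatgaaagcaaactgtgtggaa
Atoh1, chr6:64728875-64729124, plus strand: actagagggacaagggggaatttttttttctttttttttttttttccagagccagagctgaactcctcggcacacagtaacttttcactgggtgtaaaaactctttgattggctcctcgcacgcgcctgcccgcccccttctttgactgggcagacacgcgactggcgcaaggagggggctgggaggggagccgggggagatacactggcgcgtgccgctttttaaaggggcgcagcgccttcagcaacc
AGGTCA was found in these windows of Pcp2, Pcp4 and Barhl1, beginning 12, 164 and 28 bases before the start, and in 14% of all 32851 RefSeq windows of this length. CAGCTG was found in Barhl1 99 bases before the start and in 13.0% of all windows, and CAGATG in Pcp2 100 bases before the start and in 14.4% of all windows. None of the 3 motifs was in the windows of Atoh1, Neurod1, Zic1 or Pax6. A match describes the letters only, and these windows were not measured for binding.

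Pcp2 was also a target of the study's PCR assay, whose primers show which part of the transcript such an assay reads.
Forward primer: aggcttcttcaacctgctga
Reverse primer: cctggctttctgggttctgg
Both were found in 6 of the 7 Pcp2 transcripts of Gencode M21, with a product of 98 bases. The forward primer lies at chr8:3624861-3624880, in exon 2 of 5 of these transcripts and in the first exon of the other, and the reverse primer spans the next exon junction, between chr8:3624630 and chr8:3624802. The deposited loci of the Purkinje genes were chr8:3621550-3625545 for Pcp2, chr16:96361667-96525793 for Pcp4, chr4:15881263-15908064 for Calb1, chr4:8143361-8239041 for Car8 and chr6:108213117-108551109 for Itpr1 (GRCm38). Those of the granule genes were chr6:64729145-64731233 for Atoh1, chr2:28907678-28916668 for Barhl1, chr2:79255425-79461107 for Neurod1, chr9:91358057-91389348 for Zic1 and chr2:105536079-105697364 for Pax6. Exons of Neurod1 overlap Cerkl, and those of Pcp4 overlap Igsf5, on the same strand, while Neurod1 also overlaps a predicted gene, Pcp2 overlaps Pet100, Zic1 overlaps Zic4, and Itpr1 overlaps 2 predicted genes on the opposite strand. The authors' quantification is not stated to use strand, so reads in these overlaps may belong to either gene.

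Smn1 itself did not separate the genotypes. Its FPKM lay between 8.92 and 16.7 in the control total RNA libraries and between 9.55 and 17.5 in those of SMA mice. The Smn allele of this model lacks exon 7, so a value over the whole gene, to which reads from SMN2 may also map, does not check the label. Certain mice stood apart in genes of other brain regions. Among 12 hindbrain regional genes (among them En1, En2, Gbx2 and Tlx3), 7 were listed at 0 in total RNA of late control replicate 1 and 3 in late SMA replicate 3, against 0 in the other 8 total RNA libraries. Their summed FPKM was 2.53, 5.55 and 10.4 in late control replicates 1, 2 and 3 and 7.81, 11.5 and 6.87 in the late SMA replicates. En2, a midbrain and cerebellar factor, was at 0.13 FPKM in late control replicate 1 and between 0.76 and 2.53 in the other total RNA libraries. Gbx2, the most abundant gene of the list, ranged from 1.73 to 3.03 FPKM in total RNA, and 12 forebrain genes summed to 237 FPKM in late control replicate 1 and to 205 in each of the other late controls. In early SMA replicate 2, 19 genes of retina and pineal summed to 38.7 FPKM in total and 35.5 in polysomal RNA, against 9.68 to 13.7 in the other 6 early libraries, with Otx2 the most abundant over all libraries. The photoreceptor gene Nrl was at 3.89 FPKM in its total RNA and at 0.20 to 0.44 in every other total RNA library. The part of these 3 mice in the results below was not tested, and values without 1 or more of them are given beside many of the results.

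**Figure D1:**
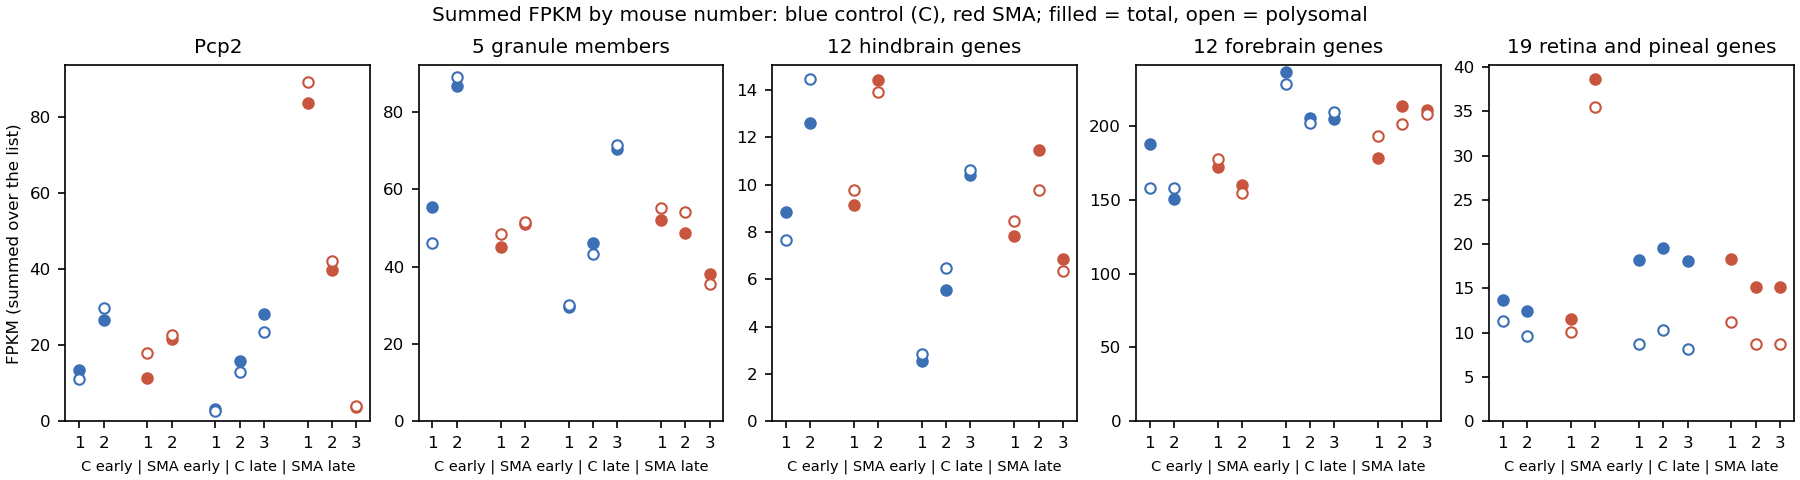
Summed FPKM (y axis, from 0) of Pcp2 alone, the 5 granule members, 12 hindbrain, 12 forebrain and 19 retina and pineal genes in each numbered mouse (x axis), control in blue and SMA in red, filled for total and open for polysomal RNA. Hindbrain genes were lowest in late control replicate 1 at 2.53 FPKM, and retina and pineal genes stood out in early SMA replicate 2 at 38.7 FPKM.

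Among the Purkinje genes, Pcp2 varied most from mouse to mouse. In total RNA it was at 13.5 and 26.6 FPKM in the early controls, at 11.4 and 21.6 in the early SMA mice, at 3.31, 15.8 and 28.3 in the late controls and at 83.6, 39.8 and 3.73 in the late SMA mice. The late SMA mice held both the highest Pcp2 and a value close to the lowest, a 22.4-fold range, and their values overlapped those of the late controls. Polysomal RNA repeated this order, with 2.76, 13.0 and 23.6 FPKM in late controls 1, 2 and 3 and 89.3, 42.1 and 4.08 in late SMA mice 1, 2 and 3. Itpr1 was tighter. Its total RNA level was 9.13 and 10.8 FPKM in the early controls and 9.56, 9.83 and 9.67 in the late controls, against 14.8 and 13.6 in the early and 14.8, 13.7 and 8.11 in the late SMA mice. Thus 4 of 5 SMA mice lay above all 5 controls and the other, late SMA replicate 3, lay below all of them, in total and in polysomal RNA alike.

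Calb1 was at 14.4 and 19.7 FPKM in total RNA of the early controls, 16.8 and 20.3 of the early SMA mice, 15.8, 17.7 and 15.3 of the late controls and 30.4, 20.8 and 14.5 of the late SMA mice. Car8 was at 11.4 and 16.9, 13.8 and 16.7, 8.36, 9.21 and 10.9, and 18.0, 14.4 and 6.69 FPKM in the same order. For both genes late SMA replicate 1 was highest among the late mice and late SMA replicate 3 lowest, so the genotypes overlapped. Pcp4, at a mean of 316 FPKM the most abundant of the 10, was at 269 and 259 FPKM in total RNA of the early controls and at 107 and 234 in that of the early SMA mice. The value of 107 in early SMA replicate 1 had no counterpart in its polysomal RNA, which held 253 FPKM. In the late mice Pcp4 was at 357, 340 and 303 FPKM in controls and at 429, 349 and 347 in SMA mice.

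Atoh1, the progenitor factor, was the lowest of the granule genes. Its mean of 0.576 FPKM was below the 1 FPKM needed for the test across genes. In total RNA it was at 0.57 and 1.46 FPKM in the early controls, 0.67 and 0.69 in the early SMA mice, 0.02, 0.20 and 0.51 in the late controls, and 0.85 and 1.08 in late SMA replicates 1 and 2. It was listed at 0 in late SMA replicate 3. Low Atoh1 thus fell in the same late mice as low Pcp2. Barhl1 was at 4.19 and 5.38 FPKM in the early controls, 2.95 and 3.05 in the early SMA mice, 0.66, 2.40 and 4.24 in the late controls and 3.37, 3.96 and 3.16 in the late SMA mice. The late controls surrounded the late SMA mice, with replicate 1 below and replicate 3 above all 3 of them.

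Neurod1 was at 10.6 and 18.96 FPKM in total RNA of the early controls, 6.45 and 8.70 of the early SMA mice, 8.95, 14.6 and 18.4 of the late controls, and 12.6, 11.8 and 6.25 of the late SMA mice. In 3 of 5 SMA mice it was below all 5 controls in total RNA, and in polysomal RNA in 1 of 5. Zic1, the most abundant of the granule genes at a mean of 28.7 FPKM, was at 29.8 and 46.2 in the early controls, 28.0 and 27.6 in the early SMA mice, 14.1, 19.6 and 35.4 in the late controls and 25.3, 22.7 and 23.6 in the late SMA mice. Pax6 was at 10.3 and 14.6, 7.08 and 10.9, 5.96, 9.46 and 11.7, and 10, 9.22 and 4.98 FPKM in the same order. Among the late controls, replicate 1 was lowest and replicate 3 highest for all 5 granule genes, as for the sum of the hindbrain genes.

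**Figure D2:**
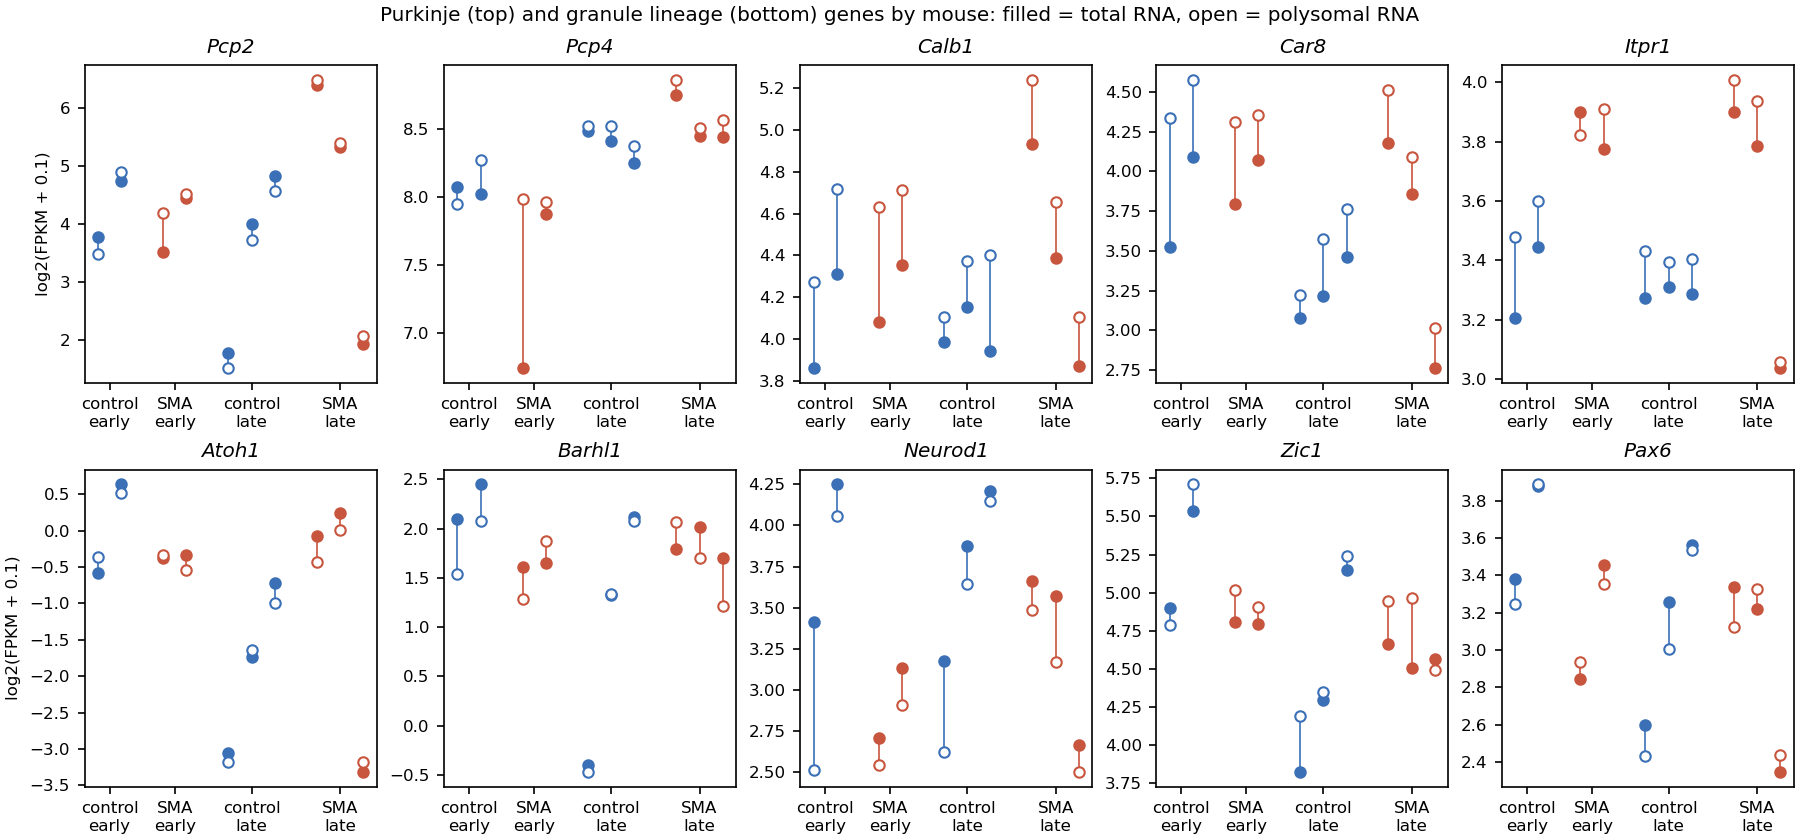
Level of each gene as log2(FPKM + 0.1) (y axis) in every mouse, grouped on the x axis by genotype and stage, control in blue and SMA in red, with filled points for total and open points for polysomal RNA of the same numbered mouse joined by a line. Within the late groups Pcp2 ran from 3.31 to 28.3 FPKM in controls and from 3.73 to 83.6 in SMA mice, and both fractions moved together.

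The first comparison asked whether these genes differed between SMA and control brains at each stage. It was made with limma on log2(FPKM + 0.1). A gene is called higher or lower where its unadjusted p was under 0.05, and the p-values printed are adjusted over all 15247 tested genes by the Benjamini-Hochberg method, so a called gene can have a high adjusted p. At the early stage Itpr1 was higher in SMA total RNA by 0.51 ± 0.13 (log2 change ± SE, n = 2 mice per genotype, adjusted p = 0.551) and in polysomal RNA by 0.33 ± 0.10 (adjusted p = 0.392). Barhl1 was lower in SMA total RNA, with a log2 change of -0.65 ± 0.18 (adjusted p = 0.551), and had a log2 change of -0.23 ± 0.33 in polysomal RNA (adjusted p = 0.744). These were 2 of 9 tested members in total RNA, where 8.25% of all tested genes were called, and 1 of 9 in polysomal RNA, against 12.5%. Across genes, which are not independent replicates, the early log2 change increased with transcript length (Spearman's rho 0.39 in total and 0.31 in polysomal RNA), and Itpr1 has the longest transcript of the 10, at 9870 bases. After a correction for length its early change was 0.26 in total (adjusted p = 0.648) and 0.09 in polysomal RNA (adjusted p = 0.697). The polysomal call was lost with this correction, equal medians, quantile normalization or 1 model over all libraries. The replicate block ended the call of Itpr1 in total RNA. Leaving out any 1 early mouse ended the call of Itpr1 in both fractions, and leaving out any but early control replicate 1 ended that of Barhl1. Neurod1 and Pax6, which retina also makes, were at 8.70 and 10.9 FPKM in total RNA of early SMA replicate 2, the mouse with high retina genes, and at 6.45 and 7.08 in early SMA replicate 1. Without replicate 2, which leaves 1 early SMA mouse, the changes in total RNA were -1.12 ± 0.50 (adjusted p = 0.284) for Neurod1 and -0.79 ± 0.30 (adjusted p = 0.25) for Pax6, against -0.91 ± 0.38 (adjusted p = 0.551) and -0.48 ± 0.32 (adjusted p = 0.581) with it. Pcp4 was then at -1.30, against -0.74 ± 0.45 (adjusted p = 0.566) with all mice. Its transcript is the shortest of the 10, at 641 bases, and these 2 values are not corrected for length. With all mice and no length correction or block, the lowest adjusted p of a member between SMA and control, within a stage or over both, was 0.362.

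At the late stage 0 of 9 members were called by limma at an unadjusted p under 0.05 in either fraction, where 9.54% of all genes were called in total and 10.7% in polysomal RNA. All 5 Purkinje genes had a higher mean in late SMA mice. Pcp2 had a log2 change of 1.02 ± 1.43 (adjusted p = 0.846) in total and 1.38 ± 1.41 (adjusted p = 0.752) in polysomal RNA, so the spread between mice exceeded the difference. The changes in total RNA were 0.37 ± 0.28 (adjusted p = 0.715) for Calb1, 0.35 ± 0.39 (adjusted p = 0.803) for Car8, 0.28 ± 0.24 (adjusted p = 0.733) for Itpr1 and 0.16 ± 0.11 (adjusted p = 0.686) for Pcp4. Neurod1 was at -0.45 ± 0.39 (adjusted p = 0.733), Barhl1 at 0.83 ± 0.66 (adjusted p = 0.731), and Zic1 and Pax6 at 0.16 and -0.17. The change of Barhl1 rested on late control replicate 1, without which it was 0.12 ± 0.28 (adjusted p = 0.967). Without late SMA replicate 3, 3 members were called in each fraction, and without late control replicate 3, 1 in each, Zic1, higher in SMA by 0.52 in total and 0.53 in polysomal RNA. Late SMA replicate 3 and late control replicate 1 were the late mice with hindbrain genes listed at 0 in total RNA. Without both, Itpr1 was higher in SMA total RNA by 0.54 ± 0.08 (adjusted p = 0.631) and Car8 by 0.68 ± 0.17 (adjusted p = 0.794). In polysomal RNA Pcp2 was then higher by 1.80 ± 0.54 (adjusted p = 0.47), together with Itpr1 and Car8. These 2 mice were left out after their values had been seen, which leaves 2 mice per genotype. The shares of all genes above come from fits with all mice. Some counts of all genes with mice left out are given at the end. The counts of members with mice left out are not set against them here, and no result about the members is drawn from them.

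With both stages fitted together and stage as a term (5 mice per genotype), Itpr1 was higher in SMA total RNA by 0.37 ± 0.16 (adjusted p = 0.362), the only one of 9 members called, where 13.3% of all genes were. The length correction ended this call, with a change of 0.28 ± 0.14 (adjusted p = 0.443), as did the replicate block. In polysomal RNA limma called 0 of 9 at the same threshold, against 16.2% of all genes, and Itpr1 was at 0.29 ± 0.17 (adjusted p = 0.435). Without the same 2 late mice Itpr1 was higher by 0.53 ± 0.07 (adjusted p = 0.0783) in total and by 0.45 ± 0.07 (adjusted p = 0.107) in polysomal RNA. Leaving out any single mouse other than late SMA replicate 3 ended the call of Itpr1 in total RNA. Without late SMA replicate 3 alone 3 members were called in total and 2 in polysomal RNA. The 13.3% and 16.2% of all genes belong to the fits with all mice. Neurod1 was at -0.64 ± 0.29 (adjusted p = 0.386) in total RNA with all mice, and was lower in SMA without the 2 late mice, at -0.67 ± 0.22 (adjusted p = 0.358). The Purkinje genes had a median log2 change of 0.27 in total and 0.29 in polysomal RNA and the 4 tested granule genes of -0.18 and -0.09, against 0.0052 and -0.0020 over all tested genes. Exact permutation tests of single genes cannot go below p = 0.333 with 2 mice per genotype or 0.1 with 3. For Atoh1 the two-sided exact permutation p was 1 in early total, 0.667 in early polysomal, 0.6 in late total and 0.6 in late polysomal RNA, and no difference was detectable in this design.

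**Figure D3:**
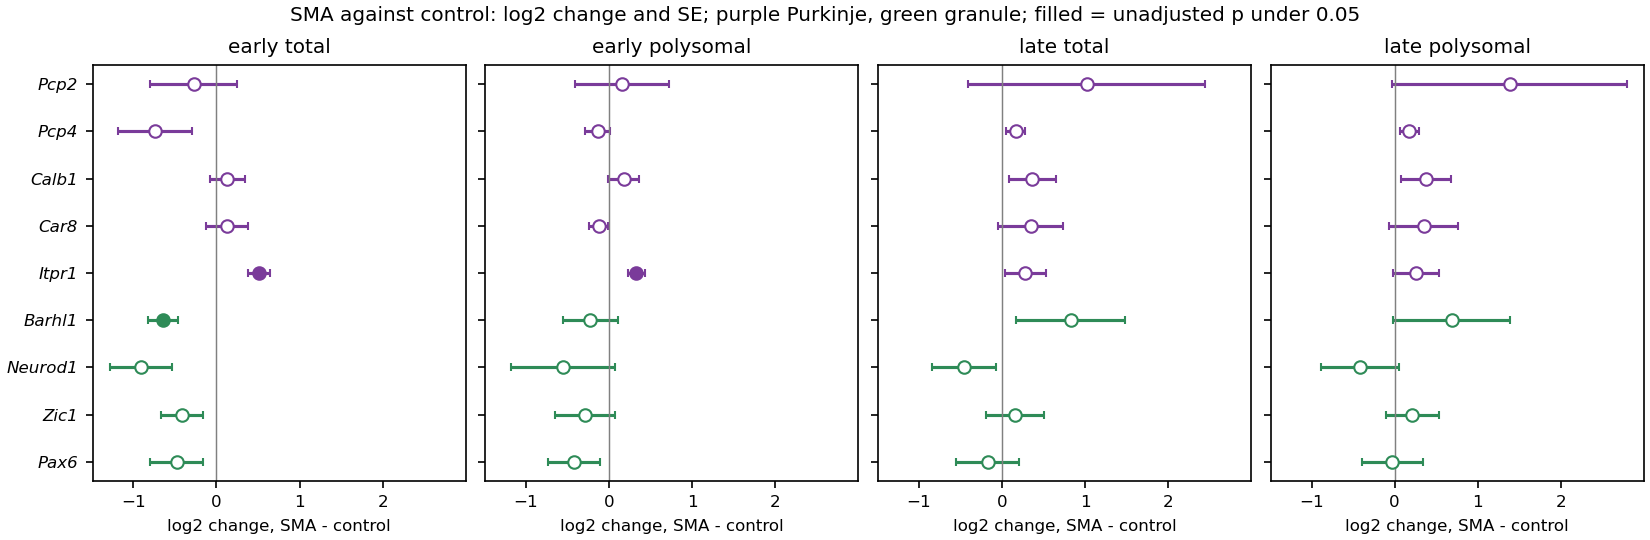
Log2 change of SMA against control with its SE (x axis) for the 9 tested genes (y axis) in each stage and fraction, Purkinje genes in purple and granule genes in green, filled where the unadjusted limma p was under 0.05. Itpr1 was called in both early fractions and Barhl1 in early total RNA, and the widest bars belong to Pcp2 in the late mice.

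Whether the genotype difference itself changed between stages was tested as an interaction. Limma called 0 of 9 members at an unadjusted p under 0.05 in total RNA, where 10.1% of all genes were called, and 0 of 9 in polysomal RNA, against 13.7%. For Barhl1 in total RNA it was 1.47 ± 0.88 (adjusted p = 0.524), and 0.77 ± 0.37 (adjusted p = 0.627) without late control replicate 1. For Pcp4 it was 0.90 ± 0.41 (adjusted p = 0.486) in total RNA, and this rested on the early SMA mice. It was 0.34 without replicate 1 of these and 1.47 without replicate 2, each of which leaves 1 early SMA mouse. Pcp4 has the shortest transcript of the 10, at 641 bases, and the early changes of all genes increased with transcript length. The values of Pcp4 here are not corrected for length. Without late SMA replicate 3, 2 members were called in polysomal RNA, Car8 and Itpr1, and without late control replicate 3, 2 in total RNA, Barhl1 and Zic1. The 10.1% and 13.7% of all genes belong to the fits with all mice. Counts of all genes without single mice are given at the end, and no result about the members is drawn from the counts here.

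Spread between mice of the same genotype and stage was wide for these genes with all mice included. The SD of log2(FPKM + 0.1) within the 8 groups of libraries was 1.67 for Pcp2, 1.30 for Atoh1, 0.79 for Barhl1, 0.62 for Neurod1, 0.48 for Car8 and for Pax6, 0.44 for Zic1, 0.36 for Calb1, 0.30 for Itpr1 and 0.27 for Pcp4, against a median of 0.16 over all tested genes. Single mice carried much of it. Without late SMA replicate 3 the SD was 0.81 for Atoh1, 0.24 for Car8 and 0.08 for Itpr1, the last below the median of all genes, which was again 0.16. Without late control replicate 1 that of Barhl1 was 0.37, and without either early SMA mouse that of Pcp4 was 0.15. Without both of the late mice it was 0.69 for Pcp2 and 0.50 for Atoh1. With all mice, the spread of Pcp2 was above that of 96.5% of the 4973 tested genes within 2-fold of its mean level, and the least of the 10, Pcp4, above 80.2% of the 485 at its level. The deviations from the group means followed each other across cell types for many pairs. Over the 10 total RNA libraries, Pearson's r of these deviations was 0.95 between Pcp2 and Pax6, 0.95 between Pcp2 and Atoh1, 0.93 between Pcp2 and Neurod1 and 0.92 between Pcp2 and Car8. The median r was 0.79 over the 10 pairs of Purkinje genes, 0.70 over the 10 pairs of granule genes and 0.62 over the 25 pairs across the groups, and the median of the members with every tested gene was -0.05. The lowest r were those of Pcp4 with Zic1, Barhl1, Atoh1 and Itpr1, from -0.18 to 0.04, and Calb1 and Itpr1 with Barhl1 and Zic1 were between 0.086 and 0.16. In polysomal RNA of the same mice the medians were 0.81, 0.86 and 0.61. Without late SMA replicate 3 and late control replicate 1, the mice farthest from the median deviation of Pcp2, r over 8 mice was 0.81 for Pcp2 with Atoh1, 0.89 with Pax6 and 0.91 with Car8, and the medians in total RNA were 0.67, 0.66 and 0.47. Spearman's rho over all 10 mice was 0.95, 0.90 and 0.93 for the same 3 pairs. These are descriptions, since the values of a pair come from the same libraries.

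**Figure D4:**
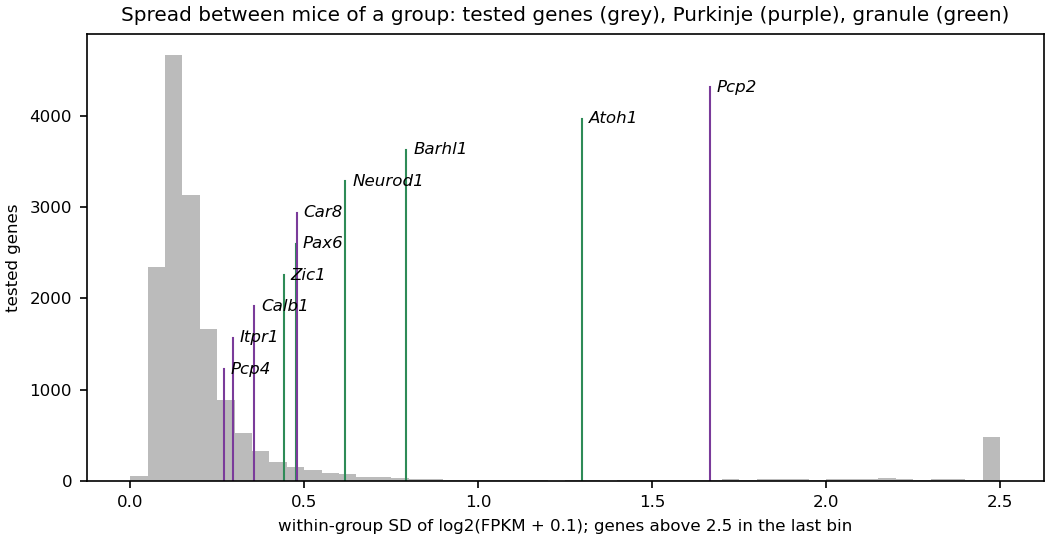
Number of tested genes (y axis) by the SD of log2(FPKM + 0.1) within groups (x axis), in grey, with lines for the Purkinje genes in purple and the granule genes in green. With all mice, all 10 lie right of the median of 0.16, with Atoh1 at 1.30 and Pcp2 at 1.67.

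The genes most like each member over the 20 libraries were taken by Pearson's r of log2(FPKM + 0.1) among tested protein-coding genes. Pcp2 and Atoh1 shared their first neighbor, Arhgef33, at r = 0.92 each. The next for Pcp2 were Paqr6 and Mob3b at 0.84 each, and for Atoh1 Homer3 and Kirrel2 at 0.91 each. Barhl1 was most like Nhlh2 and Lhx1, at 0.93 and 0.92, which are a granule lineage and a Purkinje cell gene of the lists used here. Pax6 was most like Insm1 at 0.93, Zic1 like Igfbpl1 and Cbln1 at 0.89 and 0.88, Car8 like Stk32a at 0.93 and Neurod1 like Tmem123 at 0.92. Pcp4 was most like Pin4, Resp18 and Ndufb10, at 0.95, 0.95 and 0.94.

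From day 5 to day 7 Pcp4 rose. With genotype as a term its log2 change was 0.78 ± 0.25 (adjusted p = 0.0345) in total and 0.52 ± 0.10 (adjusted p = 0.00484) in polysomal RNA. These values are not corrected for length, and the transcript of Pcp4, at 641 bases, is the shortest of the 10. Without early SMA replicate 1, whose 107 FPKM was the lowest total RNA value, the change in total RNA was 0.46 ± 0.10 (adjusted p = 0.0111). Car8 fell in polysomal RNA, with a log2 change of -0.70 ± 0.28 (adjusted p = 0.0685). These were 1 of 9 members called in total RNA, where 49.6% of all genes were called, and 2 of 9 in polysomal RNA, where 54.7% were, shares below those of all genes. Mean levels of Barhl1, Zic1 and Pax6 were lower on day 7, with log2 changes in total RNA of -0.53 ± 0.49 (adjusted p = 0.417), -0.51 ± 0.26 (adjusted p = 0.148) and -0.34 ± 0.27 (adjusted p = 0.351), which did not pass. Without the 2 late mice with hindbrain genes at 0 in total RNA, Pcp4 was still higher on day 7, by 0.53 ± 0.13 (adjusted p = 0.0253) in polysomal RNA, and Car8 was at -0.41 ± 0.19 (adjusted p = 0.13).

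Association with polysomes was compared as the polysomal minus the total level of each numbered mouse. Calb1 and Car8 were higher in polysomal RNA in 10 of 10 mice, by 0.12 to 0.55 and by 0.14 to 0.81 on the log2 scale. Itpr1 and Pcp4 were higher in 9 of 10, by medians of 0.13 and 0.11, Zic1 in 8 and Pcp2 in 6. Neurod1 was lower in polysomal RNA in 10 of 10 mice, with differences from -0.90 to -0.06. Without the mouse as a term limma called Calb1 alone, at 0.33 ± 0.14 (adjusted p = 0.0536), 1 of 9 where 51.2% of all genes were called. With the mouse as a replicate block it called 5 of 9, against 53.8% of all genes, a share near the background. These were Calb1 at 0.33 ± 0.04 (adjusted p = 9.1e-05), Car8 at 0.37 ± 0.06 (adjusted p = 0.000391), Itpr1 at 0.11 ± 0.03 (adjusted p = 0.0168), Zic1 at 0.16 ± 0.06 (adjusted p = 0.037) and, lower in polysomes, Neurod1 at -0.31 ± 0.07 (adjusted p = 0.00561). Without the block and the 2 late mice with hindbrain genes at 0 in total RNA, Calb1, Car8 and Itpr1 were called, at 0.37 ± 0.11 (adjusted p = 0.0166), 0.42 ± 0.10 (adjusted p = 0.00579) and 0.12 ± 0.04 (adjusted p = 0.0474). Atoh1, Pax6 and Barhl1 were higher in polysomal RNA in 4, 4 and 3 of 10 mice. Levels in a fraction are relative to the other RNAs of that fraction.

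For Pcp2 the genotypes did not overlap in this difference at the late stage, while its level ranged widely. In the late controls its polysomal minus total difference was -0.25, -0.28 and -0.26 on the log2 scale, and in the late SMA mice it was 0.09, 0.08 and 0.13. All 3 controls were thus below 0 and all 3 SMA mice above, although their total RNA levels spanned 3.31 to 83.6 FPKM. The difference between genotypes was 0.36, from a mean of -0.26 ± 0.01 in controls to 0.10 ± 0.02 in SMA mice (SD, n = 3 each), with a two-sided exact permutation p of 0.1, the smallest that 3 against 3 can give. As a change in translation efficiency (TE), the interaction of genotype and fraction, limma gave 0.36 ± 2.13 (adjusted p = 1) without the mouse as a term, and 0.36 ± 0.03 (adjusted p = 0.261) with it. Without the block 0 of 9 members were called at an unadjusted p under 0.05, where 2.07% of all genes were, and with it 1 of 9, against 4.32%. Without late control replicate 1 and late SMA replicate 3 the change was again 0.36. Pcp2 was the only 1 of the 10 members whose genotypes did not overlap in the late ratio, which 8.09% of tested genes showed. At the early stage the ratio of Pcp2 was -0.28 and 0.16 in controls and 0.66 and 0.07 in SMA mice, which overlapped. The early genotypes did not overlap for Itpr1, with SMA minus control at -0.18, and Barhl1, at 0.42. For each the two-sided exact permutation p was 0.333, the smallest that 2 against 2 mice can give. Limma called 0 of 9 members for the early change in TE at an unadjusted p under 0.05, against 2.32% of genes, and 0 with the block, against 2.77%.

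**Figure D5:**
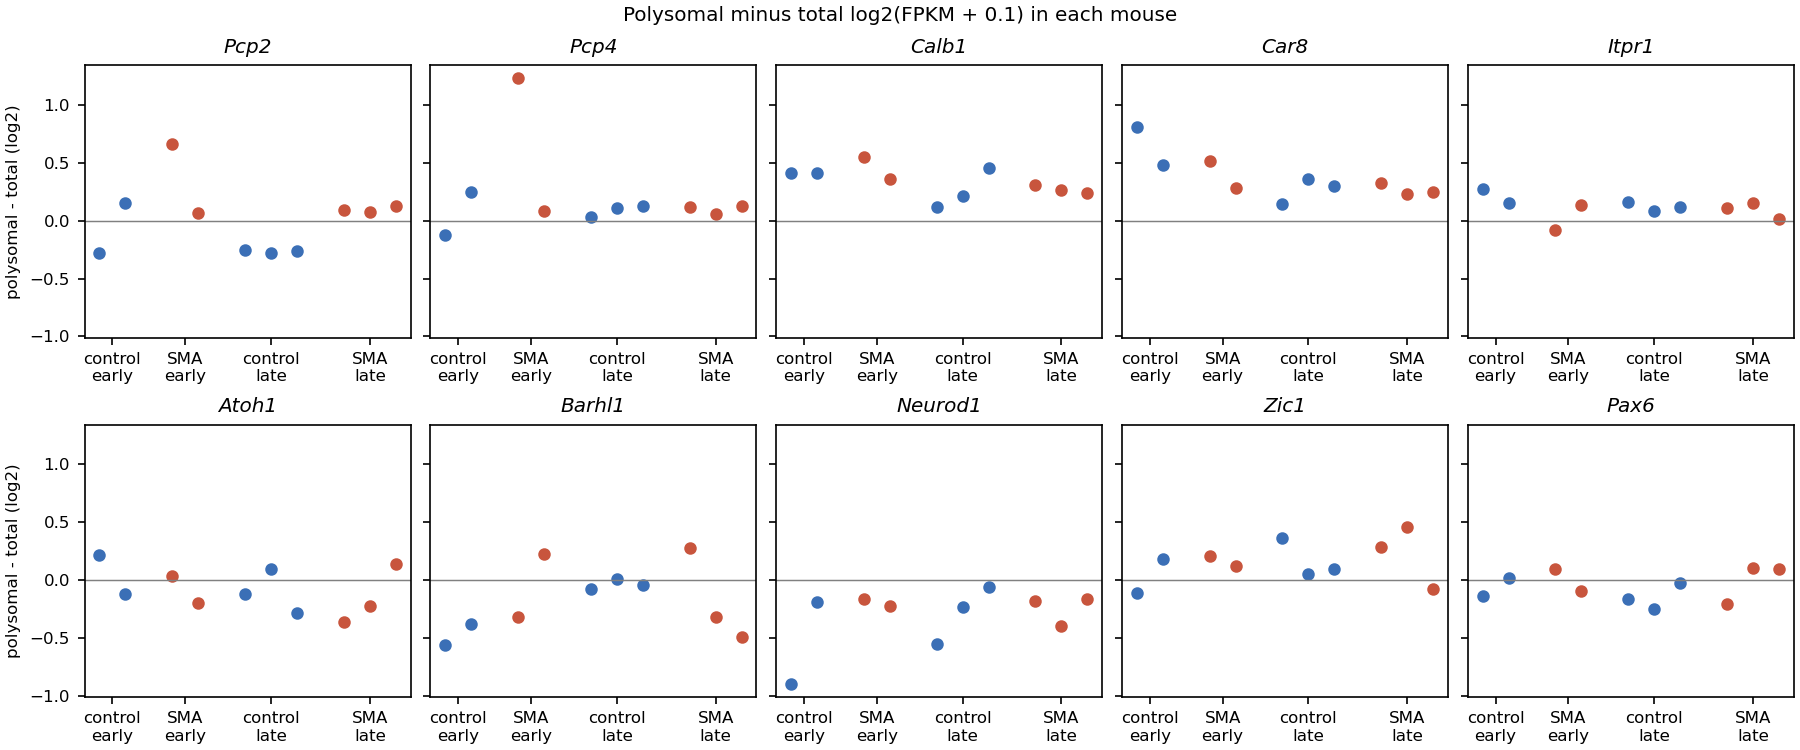
Polysomal minus total log2(FPKM + 0.1) (y axis) of each gene in every mouse, grouped by genotype and stage on the x axis, control in blue and SMA in red. In the Pcp2 panel the 3 late controls lie between -0.28 and -0.25 and the 3 late SMA mice between 0.08 and 0.13, and Calb1 and Car8 lie above 0 in all 10 mice.

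In a list of 21 other Purkinje cell genes, Skor2, Ppp1r17 and Grid2ip had means of 0.132, 0.938 and 0.999 FPKM and were not tested. The other 18 were tested. Over both stages 9 were higher and 1 lower in SMA total RNA, against 6.95% higher and 6.36% lower of all tested genes, and 7 were higher and 0 lower in polysomal RNA, against 7.88% higher and 8.3% lower. Their median log2 change was 0.22 and 0.24, against 0.0052 and -0.0020 over all tested genes. The largest rise was that of Aldoc (aldolase C, the zebrin of Purkinje cell stripes, also made by astrocytes), at 0.67 ± 0.09 (adjusted p = 0.0229) in total RNA. Aldoc was at 103 ± 8.44 FPKM in early controls and 148 ± 21.7 in early SMA mice (SD, n = 2 each), and at 120 ± 12.4 and 205 ± 16.3 in the late mice (SD, n = 3 each), without overlap at either stage. Rgs8, a regulator of G protein signaling, rose by 0.37 ± 0.06 (adjusted p = 0.0451). Ebf2 and Foxp2, transcription factors of Purkinje cells, were higher by 0.54 ± 0.16 (adjusted p = 0.209) and 0.28 ± 0.08 (adjusted p = 0.204), and the phospholipase Plcb4 by 0.23 ± 0.08 (adjusted p = 0.214) in polysomal RNA. The one that fell was Gng13, a G protein subunit, at -0.77 ± 0.22 (adjusted p = 0.191). With the length correction 9 were higher and 1 lower in total and 6 higher in polysomal RNA. Without the 2 late mice with hindbrain genes at 0 in total RNA, the counts were 8 and 1 in total and 6 and 0 in polysomal RNA. Leaving out single mice gave 6 to 9 higher in total and 5 to 7 in polysomal RNA. By stage, 3 were higher and 1 lower in early and 3 higher in late total RNA, where 8.25% and 9.54% of all genes were called in either direction. In polysomal RNA 2 were higher in early and 4 in late mice, against 12.5% and 10.7%. Dner, an abundant one that did not pass, was at 0.13 ± 0.07 (adjusted p = 0.459) in total RNA.

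With age, the list was called about as often as genes at large. From day 5 to day 7, 6 of 18 rose and 3 fell in total RNA, where 49.6% of all genes were called in either direction, among them Gng13, higher by 1.82 ± 0.22 (adjusted p = 0.000576), and the scaffold Homer3 and the factor Lhx5, lower at -0.78 ± 0.25 (adjusted p = 0.0371) and -0.77 ± 0.27 (adjusted p = 0.0521). Against total RNA, Gng13 was lower in polysomes at -1.02 ± 0.18 (adjusted p = 0.000255), and Aldoc and the glutamate transporter Slc1a6 were higher by 0.38 ± 0.06 (adjusted p = 7.5e-05) and 0.37 ± 0.08 (adjusted p = 0.00108), 2 of the 4 genes that were higher there. With 2 lower, 6 of 18 were called between fractions, against 51.2% of all genes. With the mouse as a replicate block 7 of these other Purkinje cell genes were higher and 3 lower in polysomes, 10 of 18, against 53.8% of all genes.

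The Sonic hedgehog pathway, through which Purkinje cells drive division of granule cell progenitors, was called no more often between genotypes than genes at large. Of 12 tested genes of 15, 1 was higher and 0 lower in SMA in each fraction, against 13.3% of all genes called in total and 16.2% in polysomal RNA. They were the receptor Ptch1 in total RNA at 0.15 ± 0.06 (adjusted p = 0.361) and the inhibitor Sufu in polysomal RNA at 0.68 ± 0.21 (adjusted p = 0.196). In total RNA Sufu had a log2 change of the opposite sign, -0.31 ± 0.16 (adjusted p = 0.444), which did not pass. The targets Ccnd1 and Mycn were at -0.02 ± 0.16 (adjusted p = 0.98) and -0.07 ± 0.06 (adjusted p = 0.638) in total RNA. Shh itself was between 0.52 and 0.87 FPKM in every total RNA library and was not tested. Between day 5 and day 7, 2 of the 12 rose and 5 fell in total RNA, near the 49.6% called of all genes. In polysomal RNA 3 rose and 3 fell, near the 54.7% called there. The co-receptor Gas1 rose by 0.83 ± 0.08 (adjusted p = 0.000253), while the transducer Smo fell, at -0.49 ± 0.12 (adjusted p = 0.0124).

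Of 19 tested genes of 20 in the list of other granule lineage genes, 2 were higher and 1 lower in SMA total RNA, and 3 were higher in polysomal RNA, near the 13.3% and 16.2% called of all genes. Among them were Lhx9, at 0.39 ± 0.17 (adjusted p = 0.372) in total RNA, the netrin receptor Dcc, at 0.27 ± 0.09 (adjusted p = 0.274), and Astn1, a glial guidance protein, at 0.30 ± 0.12 (adjusted p = 0.296) in polysomal RNA. From day 5 to day 7, 0 of the 19 rose and 3 fell in total RNA, and 5 rose and 2 fell in polysomal RNA, below the 49.6% and 54.7% called of all genes. Meis1 and Zic4 fell in total RNA, at -0.89 ± 0.27 (adjusted p = 0.0312) and -0.75 ± 0.21 (adjusted p = 0.0193). Sema6a, a semaphorin, and the factor Nfia rose in polysomal RNA, by 0.53 ± 0.13 (adjusted p = 0.0105) and 0.53 ± 0.18 (adjusted p = 0.0444), and were at 0.14 ± 0.07 (adjusted p = 0.16) and 0.06 ± 0.12 (adjusted p = 0.739) in total RNA. Among 9 tested of 12 mature granule neuron genes, 7 rose from day 5 to day 7 in total RNA, against 49.6% of all genes called in either direction. Gabra6, Cbln3 and Fat2, at means of 0.332, 0.458 and 0.952 FPKM, were not tested. Of 12 forebrain regional genes, 8 rose and 0 fell in total RNA, so the rise was not particular to the granule neuron list. The vesicular glutamate transporter Slc17a7, which cortex also makes, rose by 1.21 ± 0.13 (adjusted p = 0.000321) and the GABA receptor subunit Gabrd by 0.88 ± 0.13 (adjusted p = 0.00138). With genotype 1 of the 9 passed in each fraction, near or below the 13.3% and 16.2% called of all genes. It was the NMDA receptor subunit Grin2c, higher in SMA by 0.57 ± 0.21 (adjusted p = 0.305) in total RNA, and late SMA replicate 1, the mouse with the most Pcp2, held 2.60 FPKM of Grin2c against 0.87 to 1.25 in the other late total RNA libraries.

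Markers of dividing cells were lower in SMA brains. Of 12 cell cycle genes, 9 fell in total and 11 in polysomal RNA over both stages, with medians of -0.73 and -0.82, against 6.36% and 8.3% of all genes lower. Ccnb2 and Nusap1, needed for mitosis, were at -0.96 ± 0.23 (adjusted p = 0.129) and -0.95 ± 0.22 (adjusted p = 0.117) in total RNA, and Cdk1, the mitotic kinase, the most abundant of the list, at -0.82 ± 0.26 (adjusted p = 0.223). Over both stages none of the 12 passed after adjustment over all genes. Without the 2 late mice with hindbrain genes at 0 in total RNA, 10 were lower in total and 11 in polysomal RNA. Without late SMA replicate 3 alone the counts were 6 and 10. Leaving out other single mice gave 6 to 11 and, without early control replicate 2, 7 in polysomal RNA. By stage, 7 were lower in early and 3 in late total RNA, where 8.25% and 9.54% of all genes were called in either direction. In polysomal RNA 9 were lower in early and 1 in late mice, against 12.5% and 10.7%, the late count near its share. In the late total RNA libraries the 12 summed to 39.8, 47.2 and 69.1 FPKM in controls 1, 2 and 3 and to 36.4, 45.9 and 21.9 in SMA mice 1, 2 and 3, so that the late genotypes overlapped, and the lowest sum was that of late SMA replicate 3. These genes mark dividing cells of any kind.

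Markers of other cells and regions were measured beside these results, with both stages fitted together, where 6.95% of all genes were higher and 6.36% lower in total RNA and 7.88% and 8.3% in polysomal RNA. Of 9 tested genes of cerebellar interneurons and Bergmann glia, 1 was higher in SMA total RNA and 0 in polysomal RNA, and it was Slc1a3, the glial glutamate transporter and most abundant of them, at 0.20 ± 0.09 (adjusted p = 0.369) in total RNA. Of 8 tested meningeal genes, 5 were lower and 1 higher in each fraction, with Lum at -1.04 ± 0.10 (adjusted p = 0.00512) and Col1a1 at -1.05 ± 0.16 (adjusted p = 0.0273). Of 12 forebrain genes, 1 was higher and 1 lower in total RNA and 0 in polysomal RNA, Bcl11b at 0.23 ± 0.09 (adjusted p = 0.359) and Emx1 at -0.27 ± 0.10 (adjusted p = 0.279). Of 3 tested hindbrain genes limma called 0 in either fraction at an unadjusted p under 0.05. Of 3 tested retina and pineal genes 1, Otx2, was higher in polysomal RNA and 0 passed in total RNA. The part of these markers in the Purkinje and granule results was not tested.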

How the data were processed

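The authors aligned reads of TruSeq stranded libraries and deposited 1 FPKM value per gene and library. The submitters' processing notes name TopHat2 2.0.14, Cufflinks 2.2.1 and GRCm38.p4, and the study's methods name the Gencode M6 annotation. Genes averaging 1 FPKM or more across all 20 libraries (15247, of which 13101 protein-coding) were tested as log2(FPKM + 0.1) with lmFit and eBayes with a trend (limma 3.58.1, R 4.3.3). Fold changes are on this scale, which understates the change of low genes. Genes were called at an unadjusted p under 0.05, the study's threshold, with Benjamini-Hochberg adjustment over all tested genes beside it. Shares of all genes called are from fits with all mice. The fits were tested on simulated data, and the outcome is not reported here. The CuffDiff and Xtail tests of the study need reads or counts and were not run. The labels number the mice but name no litters, so p-values measure the spread between these samples. Total and polysomal libraries of 1 number were taken to come from the same gradient, which the labels do not state. Their deviations from the group means correlated at 0.12 to 0.54 over 9779 genes of at least 5 FPKM, but at -0.04 to 0.11 over all tested genes. The libraries of a number were paired on that assumption, which these correlations do not settle. Counts with the mouse as a replicate block stand beside those between fractions. The length correction removed from each library a lowess curve (span 0.3) of its deviations on log2 transcript length, taken from Gencode M21 for 99.4% of tested genes. Alternatives were another pseudocount, no filter, equal medians, quantile normalization, 1 model over all libraries, the block, the length correction, adjusted p, and leaving out mice.

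The members and the gene lists were chosen with earlier results of these data known. Of each list were named up to 4 tested genes per comparison, those with the largest change among called genes whose genotypes did not overlap within either stage (for stage and fraction, among called genes), and the 3 most abundant. For each member the 3 protein-coding genes of highest Pearson's r were taken. Lhx9, Dcc, Bcl11b, Nrl and, between genotypes, Sufu and Gng13 fall outside this rule and were named after their values were seen. Values of some single genes of the lists are not reported here.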

Additional observations from a re-analysis of the deposited data

Results flagged for a closer look

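The difference between polysomal and total Pcp2 in the late mice is listed because it was negative in every control and positive in every SMA mouse. The difference was -0.25, -0.28 and -0.26 on the log2 scale in controls and 0.09, 0.08 and 0.13 in SMA mice, so that SMA exceeded control by 0.36. The two-sided exact permutation p was 0.1, the smallest that 3 against 3 mice can give. Limma with the mouse as a replicate block called it at an unadjusted p under 0.05 and gave an adjusted p of 0.261, and without the block it was not called. The genotypes did not overlap, whatever the signs of their differences, in 8.09% of all tested genes. Pcp2 was examined because all 10 members were, and this pattern was picked out after its values were seen.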

How the results depend on the processing

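Of 9 tested members, the number called in each comparison did not move with a pseudocount of 1 or without the filter by more than 1.5 times, and no result reversed. In early total RNA 2 members were called, against 1 with 1 model over all libraries, 1 with the length correction, 4 with the length correction and block, 0 at an adjusted p under 0.05, and 0 to 3 when single mice were left out. In early polysomal RNA 1 was called, against 0 with equal medians, quantile normalization, 1 model, the length correction or adjusted p, and 0 to 2 without single mice. In the late mice 0 were called in either fraction, against 0 to 3 without single mice and 2 in total and 3 in polysomal RNA without late control replicate 1 and late SMA replicate 3, a choice made after seeing the data. Over both stages 1 was called in total RNA, against 0 with the length correction, with or without the block, and 0 at adjusted p, 2 without those 2 mice and 0 to 3 without single mice, and 0 in polysomal RNA, against 1 without those 2 mice and 0 to 2 without single mice. With age 1 was called in total RNA, and 1 to 2 without single mice, and 2 in polysomal RNA, against 1 at adjusted p, 1 without the 2 mice and 1 to 2 without single mice. Between fractions 1 was called, against 2 with equal medians, 3 with quantile normalization, 2 with the length correction, 7 with this and the block, 0 at adjusted p, 3 without the 2 mice and 0 to 3 without single mice. For TE 0 were called, against 0 to 1 early and 0 late without single mice. For genotype by stage 0 were called, against 1 in total RNA with 1 model, 1 in polysomal RNA without the 2 mice and 0 to 2 without single mice in either fraction.

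The labels give control and SMA mice of 1 number nothing in common but the number. Their deviations correlated at -0.30 to 0.20 over the protein-coding genes of at least 5 FPKM, which cannot show whether they shared a litter or batch. The replicate block gave 3 called members in early total RNA, Itpr1 not among them, 0 over both stages in total RNA, 2 with age in total and 1 in polysomal RNA, 5 between fractions, and 1 for late TE, the same with the length correction for both counts with age and for late TE. It changed no other count by over 1.5 times.

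Over all genes, 1258, 1902, 1454 and 1637 were called in early total, early polysomal, late total and late polysomal RNA, against 2907, 3539, 2295 and 2546 without the filter and 25, 99, 17 and 14 at adjusted p. One model gave 3013 and 3814 early and 590 for early TE. Over both stages 2029 and 2467 were called, against 95 and 121 at adjusted p and, in total RNA, 3207 without the filter. Between fractions 7813 became 11817 without the filter. For TE 354 early and 315 late became 1531 and 996 without the filter and 94 and 6 at adjusted p, and for genotype by stage 1547 and 2084 became 2799 and 3382, or 19 and 91, and 1024 and 1386 with the length correction (975 in total RNA with the block). The block gave 728 in early total RNA and 659 for late TE (620 with the length correction). Without single mice the early counts ran from 401 to 4319 in total and 791 to 3023 in polysomal RNA, those of TE from 301 to 952 early and 276 to 722 late, and those of genotype by stage from 796 to 4220 and 1200 to 3717. Without the 2 late mice they were 928 in late total RNA, 777 for late TE and 838 for genotype by stage in total RNA. With equal medians the share of calls that were higher went from 45.3% to 33.8% in early polysomal RNA and from 49.8% to 64.6% for genotype by stage in polysomal RNA. A left-out early mouse leaves 1 sample in its group, assumed to vary like the others. Depth per value is unknown, so low genes such as Atoh1 carry counting error that could not be estimated.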
